A study of Bos taurus with 15 samples.

Results

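Cathepsins are the peptidases of the lysosome, the acidic compartment in which a cell takes proteins apart. The genes described here are CTSB, CTSC, CTSD, CTSH, CTSK, CTSL, CTSS and CTSZ, which were taken by gene identifier with older names of the same gene allowed. All 8 genes were on the array, with 13 probe sets among the 24016 tested and 8 genes among the 9155 that could be named. CTSB had 6 probe sets, lettered here a to f from the highest mean signal to the lowest, and each of the other 7 genes had 1. CTSV, a close relative of CTSL, carries older CTSL names in RefSeq but has its own gene identifier, so it was not a member and is given separately.

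The series followed bovine (Bos taurus) oocytes and embryos made in vitro through cleavage to the blastocyst, the stage with a fluid-filled cavity and a first epithelium. Oocytes, morulae and blastocysts had 3 arrays each, 1-cell embryos had 2, and 2-cell, 4-cell, 8-cell and 16-cell embryos had 1 each, 15 in all. All groups share 1 production scheme in the labels: oocytes with dense cumulus from aspirated follicles, 20 h of maturation with LH and FSH, fertilization in vitro, removal of cumulus cells after fertilization by vortexing, and culture in SOF medium. No genotype, age of donor or further treatment was given. The labels do not say whether the oocyte arrays hold immature or matured eggs, how cumulus was removed from them, or how many eggs or embryos were pooled per array. They call the replicates biological, and p-values measure only the spread between these arrays.

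Cathepsins are made as inactive precursors, tagged with mannose phosphate in the Golgi, carried to the lysosome by receptors, and activated there when the acid milieu lets the propeptide be cut away. All of the members except CTSD are cysteine peptidases of the papain family, which cystatins inhibit, and CTSD is an aspartic peptidase. In oocytes and embryos, lysosomes break down maternal proteins and organelles, and cathepsins of cumulus cells and trophoblast have been studied in cattle in connection with oocyte quality and with remodelling of the uterine surface.

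As linear intensities, the 15 arrays had mean signals of 553 to 713 and medians of 39.7 to 62.1. Summed signal of 8 oocyte marker genes was 30010 to 53130 in oocytes and 1008 to 1376 in morulae, and all 8 were called lower in morulae. Summed signal of 11 marker genes of the morula and blastocyst epithelium went from 3639 to 8063 up to 37410 to 59440, with 8 called higher. Poly(A) spike-in transcripts, which are added to RNA as labelling controls, gave signal on oocyte 2 and 3, 1-cell 2, the 4 single arrays, morula 3 and blastocyst 3. The GAPDH control is read by probes at both the middle and the 3′ end of its transcript, and a low ratio of these goes with shortened RNA. That ratio was 0.0374 to 0.237 in oocytes, 0.1 to 0.625 in morulae and 0.339 to 0.643 in blastocysts, lowest in each of these stages on array 3. These values move with stage and replicate alike. With the spike-in class as a factor, 3 cathepsin probe sets were called in morulae and 4 in blastocysts, as without it, and the part of the GAPDH ratio in the results was not tested.

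Among the cathepsins, CTSL and CTSH were low in every array up to the 8-cell stage and high in every morula and blastocyst array, CTSD was higher in blastocysts than in oocytes, and CTSB, CTSC and CTSZ were present throughout with no call at any step on their leading probe sets. CTSK and CTSS stood highest on the 16-cell array. Comparing morulae with oocytes by limma, 3 of the 13 probe sets, of CTSL, CTSH and CTSB (probe set c), were called higher at an adjusted p below 0.05 and none lower. The same test called 18.9% of all probe sets in either direction, 11.8% higher and 7.16% lower. Counted by leading probe set (the 1 with the highest mean), 2 of 8 genes were higher, against 17.7% of all named genes called higher and 8.63% lower. Comparing blastocysts with oocytes, 4 of 13 probe sets and 3 of 8 genes were called higher and none lower, against 11.9% of probe sets and 17.8% of genes called higher and 7.36% and 8.95% called lower. These counts are small, and the 2 comparisons share the oocyte arrays.

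**Figure D1:**
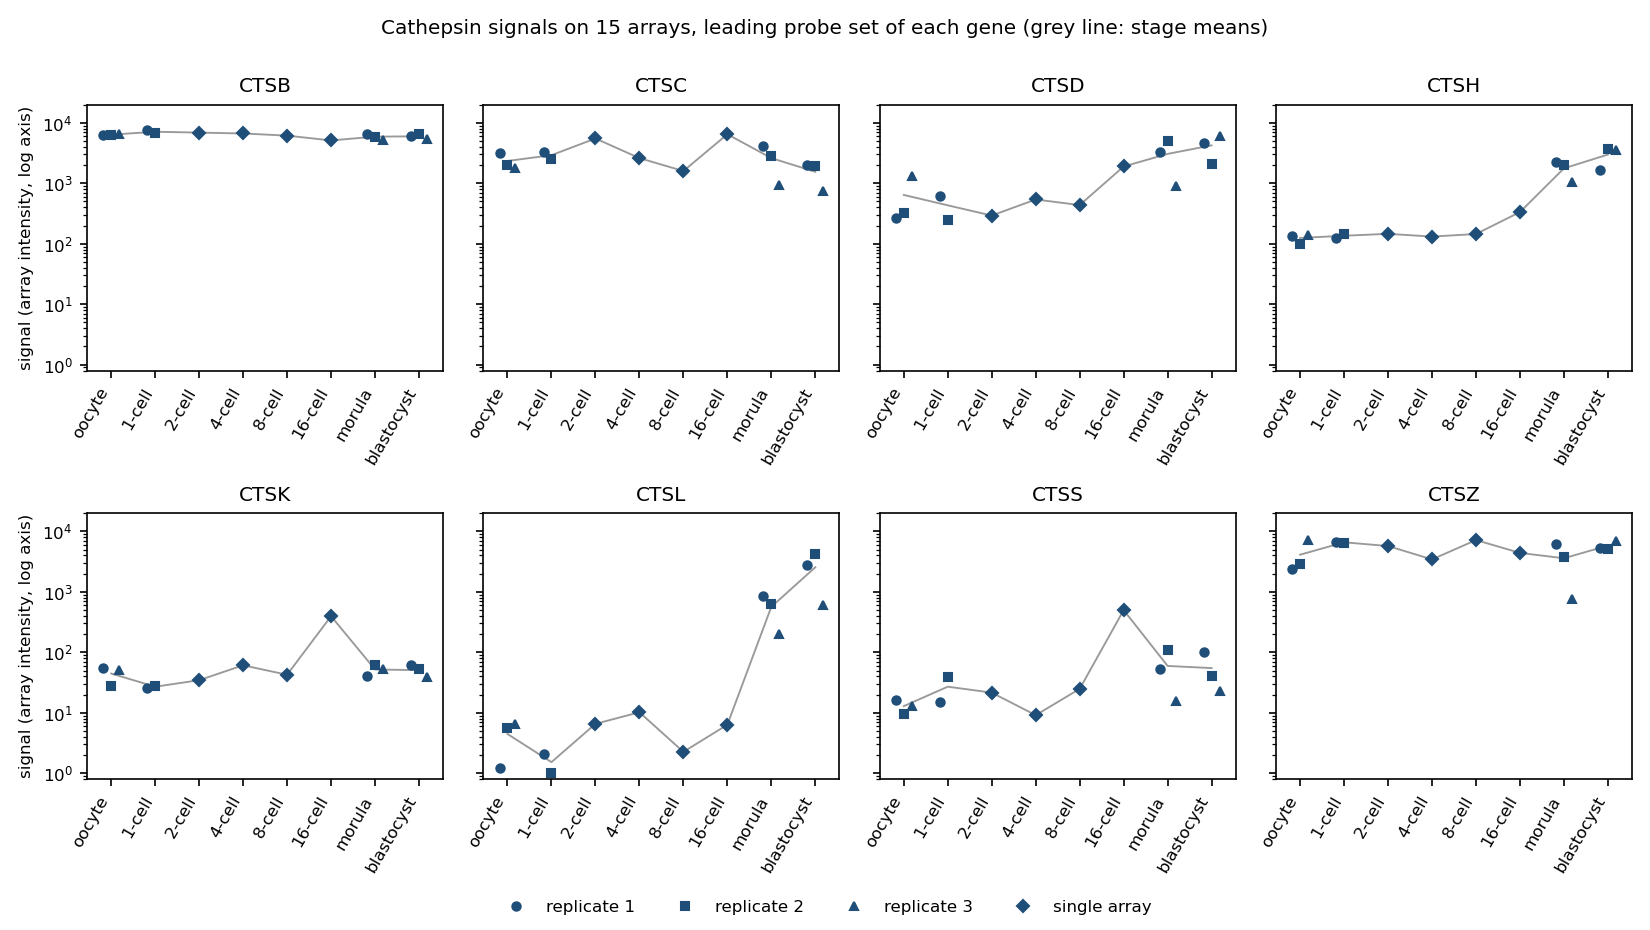
Signal (array intensity, log axis) of the leading probe set of each of the 8 cathepsin genes on the 15 arrays, by stage. Each point is 1 array, marked by replicate, and the grey line joins stage means. CTSL and CTSH have 8 arrays up to the 8-cell stage at 1.0 to 10.2 and 100.2 to 147, all below the 6 morula and blastocyst arrays, and CTSK and CTSS peak on the 16-cell array.

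CTSL (NCBI gene 515200), a broadly acting endopeptidase of the lysosome, had the widest range of stage means among the 13 probe sets. Oocyte arrays read 1.21, 5.59 and 6.6, 1-cell arrays 2.06 and 1.0, and the signal was 6.57, 10.2 and 2.26 at the 2-, 4- and 8-cell stages. The 16-cell array was still at 6.36. Morula arrays then read 860.4, 637 and 201, and blastocyst arrays 2749, 4309 and 609. Every morula and blastocyst array was thus above every earlier array, and array 3 was the lowest of both late stages. The log2 change from oocyte to morula was 4.62 (SE 0.71, adjusted p = 0.00151) and from oocyte to blastocyst 6.59 (SE 0.71, adjusted p = 2.20e-04), on log2(signal + 16), a scale that understates changes from such low signals. From morula to blastocyst the change was 1.97 (SE 0.71), with an unadjusted p of 0.0202 and an adjusted p of 0.492 in limma, and the arrays overlapped. In bulk RNA, fewer cells with a transcript and less of it per cell cannot be told apart, and signals of amplified RNA give no amount per embryo.

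CTSH (gene 510524), an aminopeptidase among the papain-like cathepsins, was also low early and high late. Oocyte arrays read 133, 100.2 and 142, 1-cell arrays 124 and 147, and the 2-, 4- and 8-cell arrays 146, 131 and 145. The signal was thus nearly level over 8 arrays. The 16-cell array read 334, morula arrays 2239.8, 1996 and 1059.7, and blastocyst arrays 1666, 3673 and 3611, with no overlap between early and late arrays. The log2 change from oocyte to morula was 3.60 (SE 0.45, adjusted p = 4.74e-04) and from oocyte to blastocyst 4.34 (SE 0.45, adjusted p = 1.79e-04). From morula to blastocyst it was 0.74 (95% interval -0.27 to 1.74), and the arrays overlapped.

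The calls of CTSL and CTSH in both comparisons held under all 16 alternatives run for each. The change of CTSL from oocyte to morula ran from 3.02 to 6.65 over them and that of CTSH from 3.22 to 4.02. Within the arrays with spike-in signal (1 morula, 2 oocyte) CTSL differed by 3.30 and CTSH by 2.99, and within the arrays without it (2 morula, 1 oocyte) by 5.46 and 3.84. The direction was the same in both classes.

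CTSD (gene 282883), the aspartic endopeptidase of the lysosome, rose by the blastocyst, with wide spread between replicates. Oocyte arrays read 269, 326 and 1329.7, 1-cell arrays 614 and 249.6, and the 2-, 4- and 8-cell arrays 293, 539.8 and 436. The 16-cell array had 1895, the morula arrays 3349, 4938 and 896, and the blastocyst arrays 4613, 2046 and 6045. Oocyte 3 was above morula 3, so oocyte and morula arrays overlapped, whereas every blastocyst array was above every oocyte array. From oocyte to blastocyst the log2 change was 2.93 (SE 0.80, adjusted p = 0.0287), and from oocyte to morula 2.29 (SE 0.80, adjusted p = 0.0763), which was not called. The blastocyst call was lost on leaving out oocyte 1 (adjusted p = 0.1), oocyte 2 (0.0954), blastocyst 1 (0.0874) or blastocyst 3 (0.0837). The morula comparison was called without oocyte 3 (2.99, adjusted p = 0.0241) or without morula 3 (3.01, adjusted p = 0.0255). Within the arrays with spike-in signal the morula difference was 0.43, and within those without it 3.84, while the blastocyst differences were 3.16 and 3.44.

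**Figure D2:**
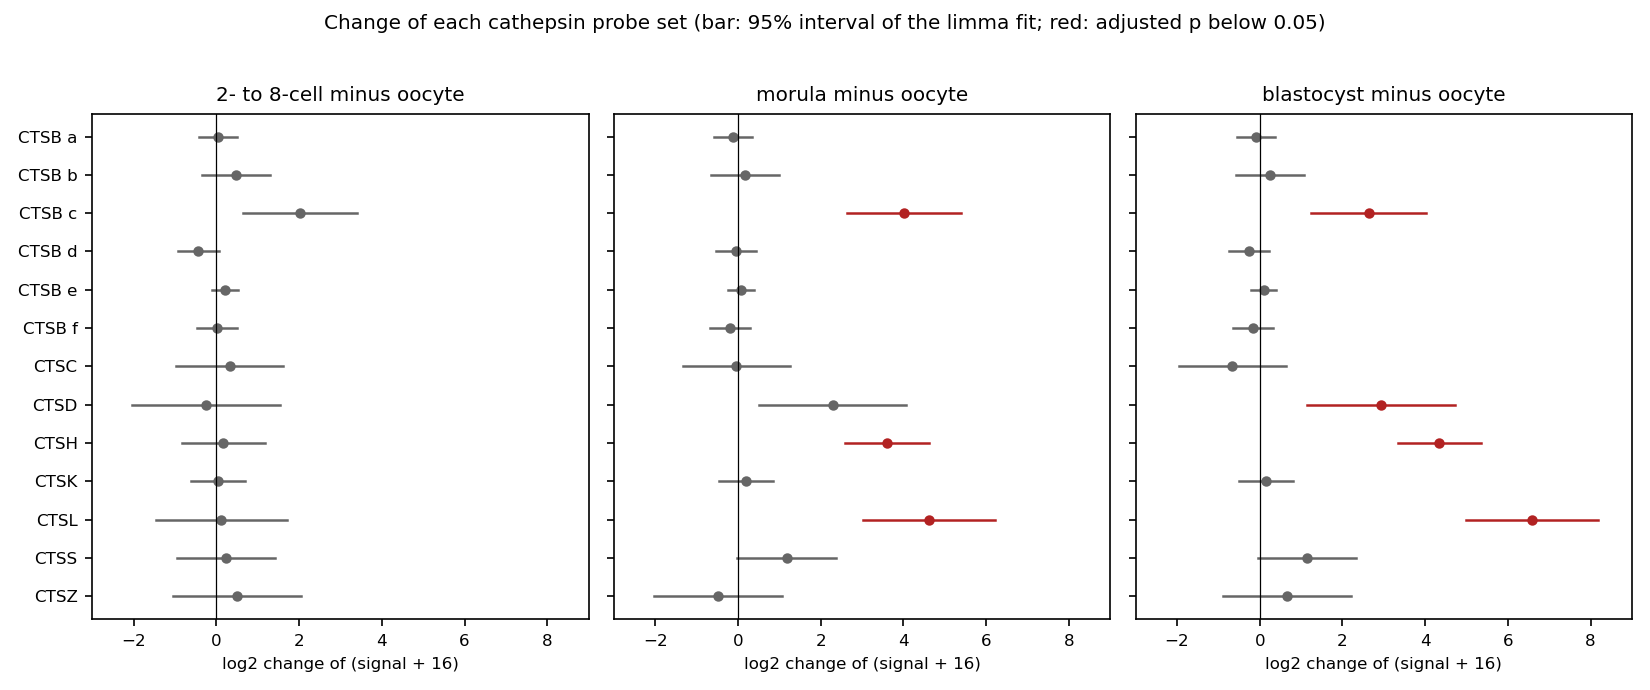
Log2 change of signal + 16 (horizontal axis) of each of the 13 cathepsin probe sets in 2- to 8-cell embryos, morulae and blastocysts, each minus oocytes. Points are limma estimates, bars their 95% intervals, and red marks an adjusted p below 0.05. CTSL, CTSH and CTSB probe set c are red in the morula and blastocyst panels, CTSD in the blastocyst panel, and no probe set is red in the 2- to 8-cell panel.

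CTSB (gene 281105), which acts both inside protein chains and on their ends, had 6 probe sets that disagreed. The leading probe set, a, read 6221, 6399 and 6471 in oocytes and 7528 and 6702 in 1-cell embryos. The 2-, 4-, 8- and 16-cell arrays had 6885, 6659, 6136 and 5114, the morula arrays 6518, 5909 and 5261, and the blastocyst arrays 5960.4, 6612 and 5381. The highest of the 15 arrays was 1.47 times the lowest. The log2 change was -0.12 from oocyte to morula (95% interval -0.58 to 0.35) and -0.09 from oocyte to blastocyst (-0.55 to 0.37). Probe set b ranged from 1198 on morula 2 to 3698 on the 4-cell array. Its changes were 0.16 from oocyte to morula (-0.66 to 0.98) and 0.25 from oocyte to blastocyst (-0.57 to 1.08), and neither was called.

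CTSB probe set c went another way. It read 4.16, 5.3 and 56.3 in oocytes, 19.0 and 16.9 in 1-cell embryos, and 105, 80.6 and 161 at the 2-, 4- and 8-cell stages. The 16-cell array had 68.8, the morula arrays 295, 354 and 1128, and the blastocyst arrays 189, 123 and 245. All morula arrays were above all others, and all blastocyst arrays above all oocyte arrays. The log2 change from oocyte to morula was 4.02 (SE 0.62, adjusted p = 0.00151), and this call held under all 16 alternatives. From oocyte to blastocyst it was 2.63 (SE 0.62, adjusted p = 0.0145), a call lost without oocyte 1 (adjusted p = 0.0578) or oocyte 2 (0.0585). From morula to blastocyst it was -1.38 (SE 0.62, adjusted p = 0.645), not called although the arrays did not overlap. CTSB probe sets d, e and f lay between 1.0 and 20.6 on every array and were called at no step. Which part of the transcript each of the 6 probe sets reads was not analysed here, so the rise is given for that probe set alone and was not seen on the leading probe set of CTSB.

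**Figure D3:**
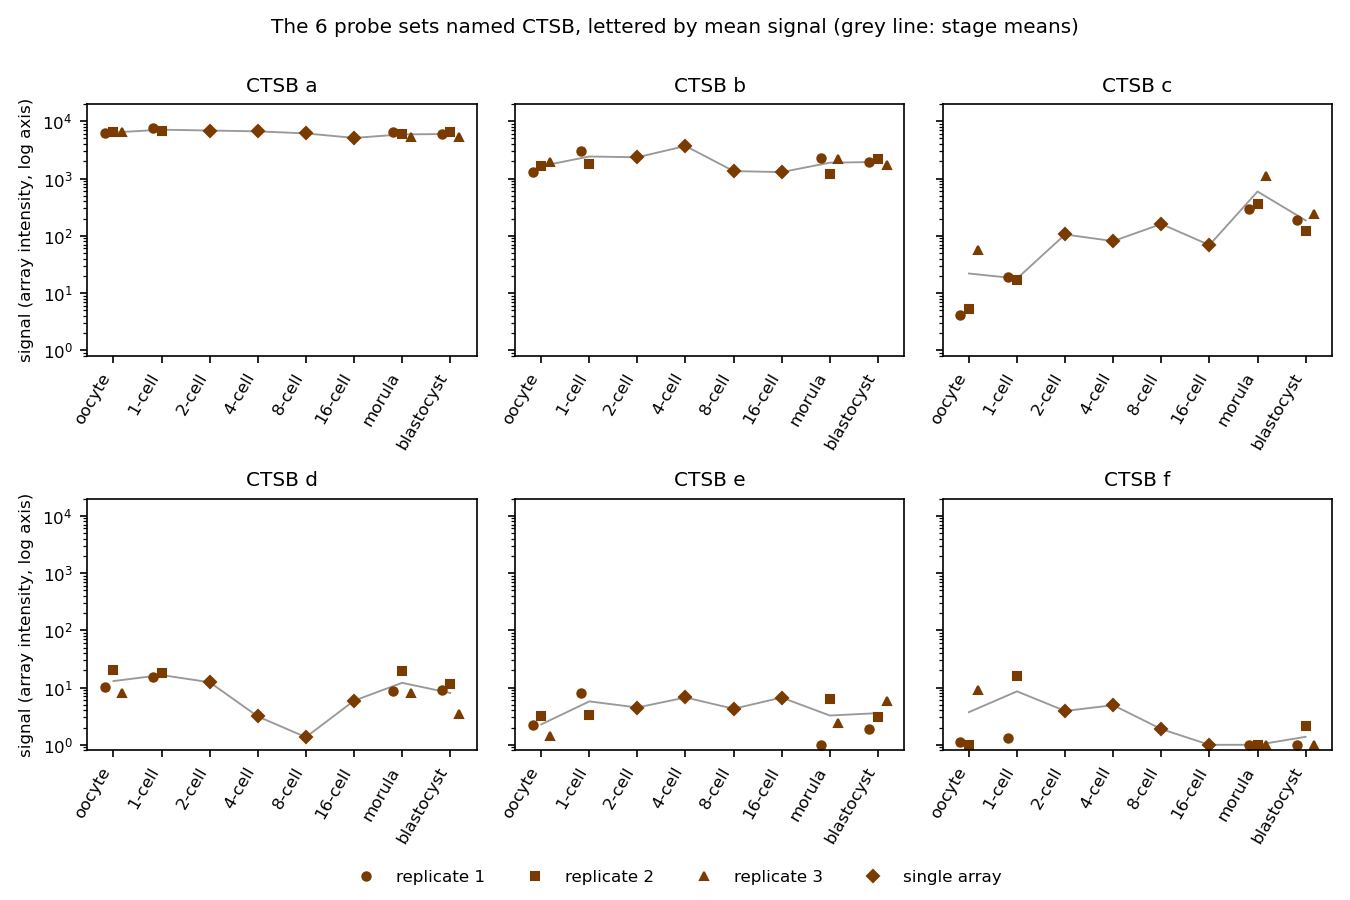
Signal (array intensity, log axis) of the 6 probe sets named CTSB on the 15 arrays, by stage, lettered a to f by mean signal. Each point is 1 array and the grey line joins stage means. Probe set a stays between 5114 and 7528, probe set c goes from 4.16 to 56.3 in oocytes to 295 to 1128 in morulae, and the 3 lower panels stay at or below 20.6.

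CTSC (gene 352958), which removes dipeptides from the start of protein chains and activates granule proteases of immune cells, was measured at every stage. Its signal was 3205, 1993 and 1816 in oocytes, 3340.3 and 2491 in 1-cell embryos, 5505, 2607 and 1593 at the 2-, 4- and 8-cell stages, and 6471 on the 16-cell array. Morula arrays had 4073, 2831 and 922 and blastocyst arrays 1992, 1901 and 752. Oocyte, morula and blastocyst arrays overlapped, both 1-cell arrays lay above all blastocyst arrays, and array 3 was the lowest of the oocyte, morula and blastocyst stages. The log2 change from oocyte to morula was -0.04 (95% interval -1.33 to 1.25) and from oocyte to blastocyst -0.67 (-1.96 to 0.63), intervals that hold changes in either direction.

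CTSZ (gene 404187), a carboxypeptidase among the papain-like cathepsins, had oocyte signals of 2414, 2865 and 7078, 1-cell signals of 6723 and 6477, and 5731, 3441, 7193 and 4411 at the 2-, 4-, 8- and 16-cell stages. Morula arrays read 6277, 3752 and 752 and blastocyst arrays 5376, 5199.6 and 6909.9. Oocyte 3 and morula 3 lay far from the other arrays of their stages and in opposite directions. The log2 change from oocyte to morula was -0.48 (95% interval -2.03 to 1.06) and from oocyte to blastocyst 0.66 (-0.89 to 2.20), and neither was called. Without the arrays numbered 3 the blastocyst change was 1.00 (adjusted p = 0.0415) and the 2- to 8-cell change 0.98 (adjusted p = 0.0435), both then called higher. The morula difference was -2.56 within the arrays with spike-in signal and 1.00 within those without it, and so turned its direction between the classes.

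Before the 16-cell stage, no cathepsin change was called. Between oocytes and 1-cell embryos 0 of the 13 probe sets passed, and 0 had an unadjusted p below 0.05, where 0.271% of all probe sets were called. Between oocytes and the mean of the 2-, 4- and 8-cell arrays 0 of 13 passed, where 6.2% of all probe sets were called, and 1 had an unadjusted p below 0.05. That 1 was CTSB probe set c, with a log2 change of 2.02 (SE 0.62, unadjusted p = 0.00872, adjusted p = 0.096), and its 3 cleavage arrays lay above its 3 oocyte arrays. It was called on leaving out oocyte 3 (2.62, adjusted p = 0.022), the oocyte array with a signal of 56.3. The cleavage stages had 1 array each, which the fit assumes to vary like the replicated stages.

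Between morulae and blastocysts 0 of 13 probe sets passed in limma, where 0.167% of all probe sets were called. Only CTSL had an unadjusted p below 0.05 there.

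CTSK and CTSS had their highest signal on the 16-cell array, a stage with no replicate and no test. CTSK (gene 513038), the collagen-degrading cathepsin known from osteoclasts, read 55.7, 27.6 and 50.7 in oocytes, 25.8 and 28.2 in 1-cell embryos, and 34.6, 61.1 and 42.6 at the 2-, 4- and 8-cell stages. The 16-cell array had 396, the morula arrays 40.4, 62.5 and 53.3, and the blastocyst arrays 61.3, 52.2 and 39.0. On log2(signal + 16) the 16-cell array was 5.25-fold above the next highest, morula 2. Oocyte, morula and blastocyst arrays overlapped, while both 1-cell arrays lay below all morula and blastocyst arrays, with a log2 change from oocyte to morula of 0.19 (95% interval -0.46 to 0.84).

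CTSS (gene 327711), the cathepsin of antigen-presenting cells, read 16.3, 9.55 and 12.9 in oocytes, 15.3 and 38.8 in 1-cell embryos, and 21.6, 9.15 and 24.9 at the 2-, 4- and 8-cell stages. The 16-cell array had 499, the morula arrays 52.5, 110.5 and 15.7, and the blastocyst arrays 101, 40.7 and 22.7. The 16-cell array was 4.07-fold above the next highest, again morula 2. Blastocyst arrays all lay above oocyte arrays, but the log2 change of 1.14 (SE 0.53, adjusted p = 0.176) was not called. The morula change was 1.18 (SE 0.53, adjusted p = 0.164), and it was called without morula 3 (1.69, adjusted p = 0.0427), the lowest morula array. In RefSeq, CTSK and CTSS lie beside each other on the chromosome with 1 protein-coding gene, LOC112445950, between them. Over the 8 stage means their log2 values had a correlation of 0.91, as a description of 8 points that include the 16-cell array where both peaked.

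Of all probe sets, 0.949% were at least 4-fold above each of the other 14 arrays on the 16-cell array, and 11.1% were above them by any size. CTSC was also highest there, by 1.18-fold over the 2-cell array. Markers of other cells moved on the same array. VIM read 1959, COL1A2 2432 and LUM 1397, 3 of 9 stromal markers that were at least 4-fold above every other array, and FST, 1 of 19 cumulus and granulosa markers, read 945. The summed stromal signal was 6029, against 346 to 753 in oocytes, 342 to 4244 in morulae and 486 to 835 in blastocysts. The other collagens of the list, COL1A1 and COL3A1, were at 8.43 and 25.9, within the range of other arrays. COL1A1 was low on every array, at 1.0 to 18.9. DCN read 80.1, above every array but morula 3 at 1324. The summed cumulus and granulosa signal was 12630, between the oocyte range of 8774 to 11970 and the morula range of 14860 to 17760. Most of that sum came from HAS2 at 4710 and SERPINE2 at 4096, and HAS2 was at 8622 to 9257 in morulae. Of the same list, HSD3B1 read 780, against at most 60.8 on other arrays before the blastocyst and 1458 to 3867 in blastocysts. CD44 read 571, also its highest. PTX3 at 12.25 and VCAN at 42.9 lay below all their oocyte arrays. None of 11 macrophage and blood markers was at least 4-fold above every other array. PTPRC, AIF1 and TYROBP were at 15.2, 7.32 and 9.69, whereas CSF1R was at 1207, below the 4-cell and 8-cell arrays at 1278 and 1250.3, and HBB at 115, below all morula arrays. Nor was any measured gene of the 6 lysosomal lists described further on. The part of these markers in the CTSK and CTSS signals was not tested.

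**Figure D4:**
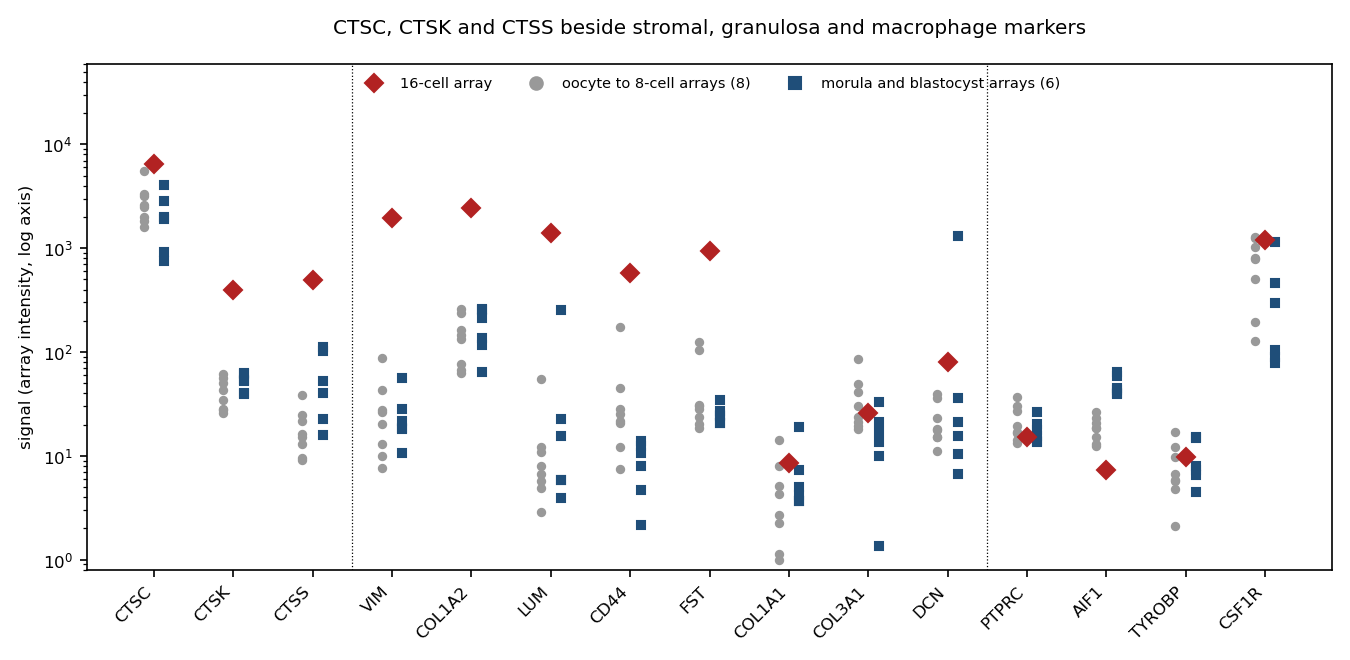
Signal (array intensity, log axis) of CTSC, CTSK and CTSS, then of some stromal, cumulus and granulosa markers (VIM to DCN) and some macrophage markers (PTPRC to CSF1R), 1 point per array. The markers were picked with their values known. Of the 19 measured cumulus and granulosa markers only CD44 and FST are drawn. Among those not drawn are HSD3B1 at 780, and STAR, PTX3 and VCAN, which lay below all their oocyte arrays. Diamonds are the 16-cell array, circles the 8 arrays up to the 8-cell stage and squares the 6 morula and blastocyst arrays. CTSK at 396 and CTSS at 499 are at least 4-fold above every other array, as are VIM, COL1A2, LUM and FST, and CD44 at 571 is also highest there, while PTPRC, AIF1, TYROBP and CSF1R are not highest.

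The order of the stages could be followed gene by gene. CTSL and CTSH were highest in blastocysts, then morulae, whose arrays overlapped with them, then the 16-cell array for CTSH, with the earlier stages close together. CTSD followed the order blastocyst, morula, 16-cell, with blastocyst and morula arrays overlapping. CTSB on its leading probe set was highest at 1 cell and lowest at 16 cells over a span of only 0.47 log2 units, CTSC was highest at 16 cells and lowest in blastocysts over 2.18, and CTSZ was highest at 8 cells and lowest in morulae over 1.45. The single arrays give these steps no replicate check.

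The 16-cell array, which has no replicate, was also placed between the oocyte and morula arrays for the late cathepsins. Of the 2830 probe sets called higher in morulae, 46.5% were at or above the lowest morula array there, 36.0% lay between oocyte and morula arrays, and 17.5% were at or below the highest oocyte array. CTSL was among the last kind, at 0.03 of the log2 distance from oocyte to morula mean. CTSH, at 0.368, and CTSB probe set c, at 0.357, lay between. For CTSB probe set c this was no step upward. It read 68.8 there, below its 2-, 4- and 8-cell arrays at 105, 80.6 and 161.

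Array 3 of a stage often read apart from arrays 1 and 2. For CTSL it was lower by a log2 difference of -1.80 in morulae and -2.47 in blastocysts, for CTSC by -1.86 and -1.35, and for CTSS by -1.55 and -1.08. For CTSZ the difference was 1.42 in oocytes and -2.67 in morulae, and for CTSD 2.11 and -2.16. For CTSB probe set c array 3 was higher in oocytes by 1.80 and in morulae by 1.76. Morula 3 also carried THY1 at 2421 and DCN at 1324, the highest stromal signals outside the 16-cell array. Without the arrays numbered 3, 5 of 13 probe sets were called higher in morulae (CTSD and CTSS added) and 5 in blastocysts (CTSZ added). Calls over all probe sets also rose in that run, for morulae to 7102 of 24016 in either direction from 4550.

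Among themselves, the stage means of CTSH and CTSL had a correlation of 0.97, CTSD and CTSH 0.93 and CTSD and CTSL 0.84, as a description of 8 stage means from the same 15 arrays. Among the 7114 named probe sets whose stage means spanned at least 2 log2 units, the most like CTSL were SLC39A2, NCEH1 and SHPK, with correlations of 0.997, 0.997 and 0.996. The most like CTSH were CCL25, S100A10 and SARS1 (0.993, 0.991 and 0.991), and the most like CTSD were CD151, IL1RN and MFSD5 (0.997, 0.993 and 0.99). For CTSS they were JAM2, METTL25B and PRNP (0.995, 0.988 and 0.987), and for CTSK F5, VPS25 and ASPH (0.99, 0.984 and 0.984). For CTSC they were SCNM1, C5H12orf75 and DDX50 (0.975, 0.954 and 0.945), and for CTSB, whose own span was 0.47, DDB2, DNAJA1 and GRHPR (0.967, 0.965 and 0.962). For CTSZ, whose own span was 1.45, no probe set came closer than METRNL at 0.785, followed by SSX2IP and ALS2CL at 0.768 each.

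Other cathepsins were given from a list of 8 symbols, of which 4 were measured. In morulae 3 of the 4 were higher than in oocytes and none lower, where 17.7% of all named genes were higher and 8.63% lower. Their median log2 change on leading probe sets was 2.20. The median over all probe sets, a wider set that includes those without a gene name, was 0.04. CTSV, the relative of CTSL 13 protein-coding genes away from it in RefSeq, read 258, 328 and 41.1 in oocytes, 122 and 101 in 1-cell embryos and 58.8, 435 and 196 at the 2-, 4- and 8-cell stages. It was at 7479 on the 16-cell array, at 12020.3, 11637 and 9198 in morulae and at 11287, 13048 and 8058 in blastocysts. Its log2 change from oocyte to morula was 5.96 (SE 0.61, adjusted p = 1.57e-04), and on the 16-cell array it had covered 0.909 of that distance, where CTSL had covered 0.03. The timing of the 2 genes on that array was not tested, having no replicate, and reads shared between such relatives by cross-hybridization were not examined. CTSA, a serine carboxypeptidase that also protects the sialidase NEU1, rose by 2.85 (SE 0.68, adjusted p = 0.0153), a call lost in 5 of 16 alternatives (without oocyte 1, oocyte 2, morula 1 or morula 2, and with only the compared stages). CTSF, another papain-like cathepsin, rose by 1.54 (SE 0.26, adjusted p = 0.00271) at signals of 1.0 to 5.73 in oocytes and 23.8 to 50.8 in morulae. CTSW, a cathepsin of cytotoxic lymphocytes, had 24.3 ± 10.1 in morulae and 20.8 ± 17.7 in oocytes (SD, n = 3 each) and was not called.

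Peptidase inhibitors were measured for 5 of 13 symbols, and whether each acts on the member cathepsins was not examined. In morulae 1 of 5 was higher and none lower (median 0.30), against 17.7% and 8.63% of all named genes. In blastocysts 2 of 5 were higher than in oocytes, against 17.8% of all named genes. The genes called were SERPINB6 and SPINT2. The cystatins measured, CST3 and CST6, were not called on their leading probe sets. SERPINB6, an intracellular serpin, rose by 1.89 in morulae (SE 0.57, adjusted p = 0.0424), a call lost in 8 of 16 alternatives, the replicate block, quantile normalization and centring among them, and when oocyte 1, oocyte 2, morula 1 or morula 2 was left out. In blastocysts it rose by 2.94 (SE 0.57, adjusted p = 0.00513). SPINT2, an inhibitor chiefly of serine proteases rather than of cysteine cathepsins, rose in blastocysts by 5.12 (SE 1.06, adjusted p = 0.0077), from 82.7 ± 105 to 2212 ± 314 (SD, n = 3 each). CST3, the secreted cystatin C, had a log2 change of -0.91 in morulae (adjusted p = 0.0669) on its leading probe set and 0.85 and 0.44 on the other two, none of them called.

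For activation and sorting, 12 of 17 genes were measured. In 2- to 8-cell embryos 3 were lower than in oocytes and 1 was higher, where 3.13% of all named genes were lower and 4.23% higher. PSAP, the precursor of the saposins, fell by 2.54 on the log2 scale there (SE 0.34, adjusted p = 0.00295), while of its other 3 probe sets 1 was called at -2.74 and the rest, at -2.60 and 0.27, were not called. IGF2R, a receptor that carries tagged enzymes to lysosomes, fell by 4.57 (adjusted p = 0.00322) and SCARB2, the receptor of glucocerebrosidase, fell by 5.38 (adjusted p = 0.0302), both named after their values were seen. LGMN, a peptidase that processes cathepsins, had a change of -1.50 (adjusted p = 0.0985) there and 0.65 in morulae (adjusted p = 0.385). In morulae the 1 gene called was GGA1, an adaptor of receptor transport from the Golgi, higher by 5.00 (SE 0.46, adjusted p = 9.10e-05), whose second probe set changed by 0.07 and was not called. The 2- to 8-cell calls of PSAP and GGA1 were lost when only the compared stages were fitted, which leaves fewer degrees of freedom.

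Other lysosomal hydrolases were higher in morulae for 10 of 27 measured genes and lower for 3 (median 1.03). Of all named genes, 17.7% were higher there and 8.63% lower. The largest changes were those of SMPD1, acid sphingomyelinase, at 4.89 (SE 0.44, adjusted p = 8.60e-05), NEU1, a sialidase, at 3.77, GUSB, beta-glucuronidase, at 3.65, and HYAL1, a hyaluronidase, at 3.62. In blastocysts 12 were higher than in oocytes and 2 lower, where 17.8% of all named genes were higher and 8.95% lower. Of lysosomal membrane proteins and subunits of the proton pump that acidifies the lysosome, 8 of 27 were higher in morulae and 3 lower (median 1.13). The pump subunits ATP6V1E1, ATP6V1D and ATP6V0D1 rose by 5.22, 4.53 and 3.64, and the sialic acid exporter SLC17A5 fell by 4.26 (SE 0.79, adjusted p = 0.0043). In blastocysts 11 were higher and 2 lower, against the same 17.8% and 8.95% of all named genes. Of regulators and endosome traffic genes, 4 of 19 were higher in morulae and 2 lower (median 0.32), and in blastocysts 3 and 1. These counts were near the shares of all named genes given above. VPS11, of the complexes that tether endosomes, rose by 4.54, and LAMTOR4 and LAMTOR1, of the complex that anchors mTORC1 signalling to the lysosome, by 4.02 and 2.42. TFE3, a transcription factor of lysosome genes, fell by 2.09 (SE 0.64, adjusted p = 0.0475). The TFE3 call was lost in 9 of 16 alternatives, among them leaving out oocyte 2, oocyte 3 or any morula array, and that of LAMTOR1 without oocyte 2 or any morula array.

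From morula to blastocyst none of the 94 measured genes of the 6 lists was called in limma, where 0.24% of all named genes were. Among the genes of highest mean in each list, SPINT2 had the largest change there, 2.04 (SE 1.06, adjusted p = 0.721). The others were CTSV at -0.04 (SE 0.61), CTSA at 0.81 (SE 0.68), CST3 at 0.55 (SE 0.31), PSAP at 0.03 (SE 0.34), GNPTAB at -0.01 (SE 0.46), SCPEP1 at 0.07 (SE 0.57), PPT2 at -0.34 (SE 0.52), LAMP1 at 0.37 (SE 0.32), ATP6AP1 at 0.00 (SE 0.38), RRAGA at 0.05 (SE 0.28) and VPS35 at 0.77 (SE 0.65). The list shares called higher in morulae stand beside 17.7% of all named genes, and those called lower beside 8.63%. Quantile normalization and centring moved the median change of all probe sets from oocyte to morula from 0.04 to -0.06 and -0.14.

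**Figure D5:**
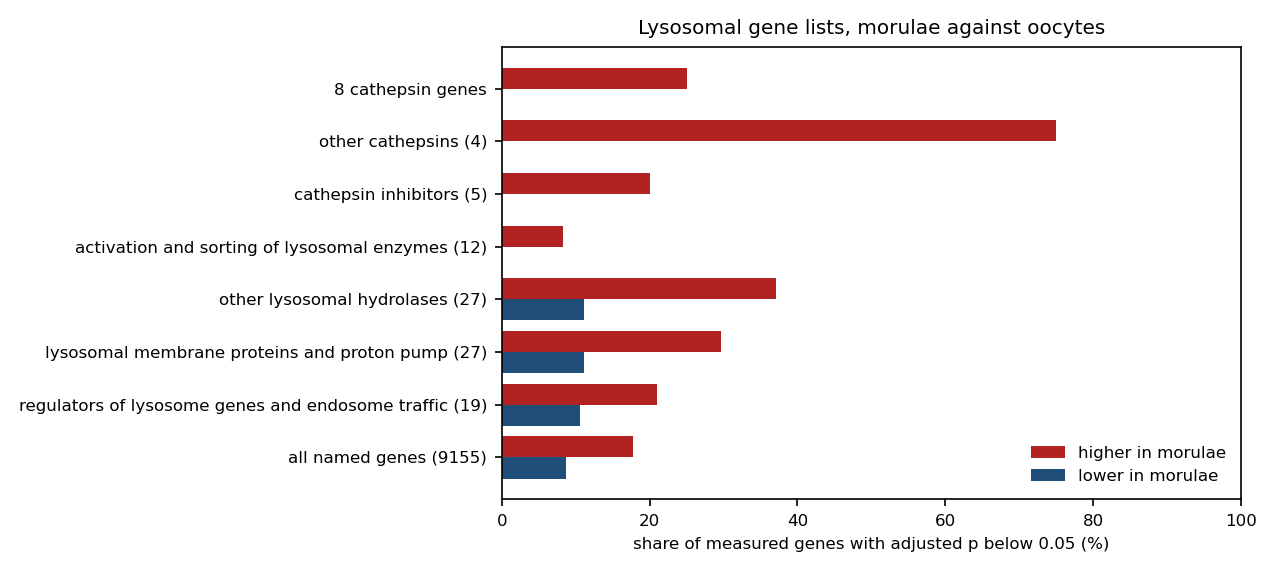
Share of measured genes called higher (red) and lower (blue) in morulae than in oocytes (horizontal axis, percent of genes, adjusted p below 0.05), for the 8 cathepsin genes, 6 lists of lysosomal genes with the number measured, and all named genes. The cathepsin bar stands for 2 of 8 genes and the hydrolase bars for 10 and 3 of 27, and the bottom bars for 17.7% and 8.63% of 9155 genes.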

How the data were processed

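Affymetrix Bovine Genome arrays, 15 in all, were measured, and the authors deposited linear intensity values, 1 per probe set and array. Total RNA was, per the labels' protocols, amplified in 3 rounds and labelled with biotin. How probes were summarised and arrays scaled, with which software, is not given in the sources used here. Of the deposited values, 2.56% were exactly 1.00, and no detection call was used, so low signals have no stated background limit. Medians of replicate arrays lay within 0.45 log2 units of each other, and values were used as deposited.

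After 112 control probe sets were left out, log2(value + 16) of 24016 probe sets was fitted with limma 3.58.1 (R 4.3.3): a mean per stage on all 15 arrays, empirical Bayes with a mean trend, 7 residual degrees of freedom, with p-values adjusted by Benjamini-Hochberg across all of them and a threshold of 0.05. The procedure was tested on simulated data. Every fold change is on that scale. The number of arrays limits the precision. Names came from the platform's annotation, updated by gene identifier through RefSeq (ARS-UCD2.0): 13292 probe sets had 1 symbol, 86 several and 10638 none. No coordinates are given.

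The members, lists and alternatives were chosen with earlier results of these data known. Named were every member and, per list, up to 4 genes past the test with the largest change from oocyte to morula and from morula to blastocyst, or else the 2 of highest mean, and the 3 genes most like each member by stage means. Others are said to be named after their values were seen or stand in the lists of cathepsins and inhibitors. LGMN, THY1 and the markers of the 16-cell array were also named with values known.

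Deviations of same-numbered arrays from their stage means correlated at 0.142, 0.107 and 0.182 between oocytes and morulae. They were 0.195, 0.106 and 0.306 between morulae and blastocysts, and 0.278, 0.276 and 0.285 between oocytes and blastocysts. Some pairs with unlike numbers were as high, such as morula 1 with blastocyst 2 at 0.3045 and oocyte 2 with morula 1 at 0.155. Every pair of an array 3 with an array 1 or 2 of another of these stages was negative, from -0.340 to -0.127. Arrays numbered 3 thus deviated alike in oocytes, morulae and blastocysts. These values do not show that the numbers pair the stages, and the main fit used no pairing. Between oocytes and 1-cell embryos the same-numbered correlations were 0.183 and -0.116. The replicate block, run as an alternative, included the 1-cell arrays. Alternatives were quantile normalization, median centring, leaving out the dimmest probe sets, pseudocounts of 1 and 64, no mean trend, only the stages compared, a replicate block, the spike-in class as a factor, leaving out the arrays numbered 3, and leaving out each array. Plots used matplotlib 3.10.9 (Python 3.11.15).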

Additional observations from a re-analysis of the deposited data

Results flagged for a closer look

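On the 16-cell array, which enters no tested comparison, 3 members had their highest signal of all 15 arrays. The same held for 11.1% of all probe sets. CTSC read 6471, against 5505 on the next array (2-cell). CTSK read 396, against 62.5 on the next (morula 2). CTSS read 499, against 110.5 on the next (morula 2). This stage has 1 array, so none of the 3 signals has a replicate.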

How the results depend on the processing

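No called cathepsin change turned its direction under the alternatives run. Leaving out the arrays numbered 3 moved the count for 2- to 8-cell embryos from 0 to 2 and that for morulae from 3 to 5. For blastocysts against oocytes the count moved from 4 to 5. Over all probe sets, calls in that run rose from 1488 to 4661 for 2- to 8-cell embryos and from 4550 to 7102 for morulae. Leaving out 1 array at a time gave 0 in every run for 1-cell embryos, 0 to 1 for 2- to 8-cell embryos (1 without oocyte 3), 3 to 5 for morulae (5 without morula 3), 0 in every run from morula to blastocyst, and 2 to 4 for blastocysts against oocytes (2 without oocyte 1 or oocyte 2). The replicate block, possible for all comparisons but that of 2- to 8-cell embryos, whose titles carry no number, changed no call of a member: the counts stayed at 0, 3, 0 and 4, and CTSD had an adjusted p of 0.0913 in morulae and 0.0401 in blastocysts. Outside the runs that left out an array, 617 values kept their side of the threshold and 5 crossed it to be called, all on leaving out the arrays numbered 3. In the runs that left out an array, 367 kept their side, 4 crossed it to be called and 6 lost their call. Taking the mean of the 6 CTSB probe sets in place of the leading one lowered the CTSB level at all 8 stages. That outcome was fixed by the choice of the highest probe set as the leading one, so it checks nothing. Over all probe sets the count of calls ran from 0 to 419 for 1-cell embryos, 0 to 4661 for 2- to 8-cell embryos, 3260 to 7102 for morulae, 0 to 95 from morula to blastocyst and 3414 to 6806 for blastocysts. Signals near 1.0 have no stated limit of background, which limits the low stages of CTSL, CTSS and the low CTSB probe sets.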
